A study of Mus musculus with 2 samples.

Results

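Cd160, Cd244a, Entpd1, Lilrb4a, Vsir and Cd96 encode 6 cell-surface proteins linked to the restraint and the tissue residence of lymphocytes in the gut epithelium. The genes were chosen by name, as 6 of the 32285 genes in the count matrices, and all 6 were detected in both libraries. They were followed in cells labelled γδ T lymphocytes, from C57BL/6J animals 18 to 20 weeks old, profiled by droplet sequencing of transcript 3′ ends with unique molecular identifiers (UMIs). One group was the tumour library (labelled TIL, colon tumor), and the other was the normal library (labelled IEL, normal colon tissue), with 1 library each. The labels used here name no tumour model, sort, sex or number of animals, and their digestion text speaks of tumour tissue for both samples. Because each tissue is 1 library, tissue and library cannot be told apart, no test over samples was possible, and every 95% interval covers counting error only.

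Intraepithelial lymphocytes of the gut sit between epithelial cells, and many carry CD8αα, a homodimer made from Cd8a without Cd8b1. CD160 is a lipid-anchored receptor for HVEM (Tnfrsf14), CD244 (2B4) is a SLAM-family receptor for CD48, and LILRB4A (gp49B) carries inhibitory motifs in its tail. ENTPD1 (CD39) is an enzyme that degrades extracellular ATP, VSIR (VISTA) is a B7-family checkpoint protein, and CD96 binds the poliovirus receptor (Pvr) in competition with CD226 and TIGIT.

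The TIL library held 13245 cell barcodes and 94953893 UMIs, and the IEL library 9398 barcodes and 69414155 UMIs. After filtering, 11791 TIL cells (median 6391 UMIs) and 9083 IEL cells (median 6855 UMIs) lay in clusters called T-like, which needed at least 3 γδ T markers (such as Trdc and Cd3e) at 50 UMIs per 1000000 (CPM). Trdc, the δ constant segment, was detected in 98.9% of T-like cells of TIL and 96.8% of those of IEL. Trac, the α constant segment, was detected in 37.6% of T-like cells of TIL and 77.8% of those of IEL. When every cell was thinned to 2000 UMIs, Trac was found in 15.8% of TIL and 43.1% of IEL T-like cells, against 5.66% (2.96 to 9.68) of the myeloid-like TIL cells described next, and Trdc in 95.1% of TIL and 74.7% of IEL T-like cells, against 39.2% of myeloid-like TIL cells. In all, 33 barcodes were shared by the libraries. Besides T-like cells, TIL held 255 myeloid-like cells, against 1 in IEL, and a cluster of 313 TIL and 18 IEL cells with high doublet scores was left out. Haemoglobin and other erythroid transcripts summed to 2168 CPM in TIL T-like cells, against 0.190 CPM in IEL, and the 12 macrophage or monocyte markers to 57.2 CPM in TIL, against 10.1 CPM in IEL, where 2 of them were at 0. Neutrophil markers summed to 48.1 CPM in TIL, against 0.0439 CPM in IEL, where 7 of the 8 were at 0. The part of these transcripts in the values given here was not tested.

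The cells were split by Cd8a, the α chain of CD8. At least 1 Cd8a UMI was found in 877 TIL cells, 7.44% of T-like cells (95% interval 6.97 to 7.93), and in 6919 IEL cells, 76.2% (75.3 to 77.0). The remaining 10914 TIL and 2164 IEL cells had none. Cd8b1 was detected in 4.33% of TIL and 8.35% of IEL cells with a Cd8a UMI. Of the TIL cells with a Cd8a UMI, 39.7% lay in clusters called cytotoxic-like, against 86.9% of those in IEL, and 13.6% lay in clusters called IL-17-like, against 0.0145% in IEL. Median depth was 5785 UMIs in TIL and 6984 in IEL cells with a Cd8a UMI, and 6455.5 in TIL and 6399 in IEL cells without one. Myeloid-like TIL cells, which should lack Cd8a, had a Cd8a UMI in 6.67% of cells at a median of 6752 UMIs. When every cell was thinned to 2000 UMIs, that share was 0.472% (0.0119 to 2.60) in myeloid-like cells and 5.60% (5.19 to 6.03) in TIL T-like cells. With the split itself made at that depth, 0 of the 6 genes were 2-fold apart between TIL and IEL among cells with a Cd8a UMI, where 4.64% of 6104 genes were lower and 3.15% higher in TIL. Among cells without one it was 5 of 6, where 14.2% of 6307 genes were lower and 11.7% higher.

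Over all T-like cells, 5 of the 6 genes were at least 2-fold lower in TIL than in IEL with an interval excluding 1, and Vsir was within 2-fold. The same rule marked 13.8% of the 6327 genes with at least 20 CPM in either library as lower and 11% as higher. The median log2 ratio of the 6 genes was -2.27, against -0.10 over all measured genes. Among cells with a Cd8a UMI none of the 6 genes was 2-fold apart, where 4.95% of 6160 genes were lower and 4.32% higher in TIL, and their median log2 ratio was -0.44, against -0.06 over all genes. Among cells without a Cd8a UMI, 4 of 6 were lower in TIL, against 13.9% of 6301 genes lower and 12% higher, with a median log2 ratio of -2.50, against -0.10. In cytotoxic-like cells alone, 3.11% of TIL and 76.6% of IEL T-like cells, none of the 6 was 2-fold apart. The share of all genes apart was not computed for these cells. Log2 ratios there were -0.34 for Cd160, -0.29 for Entpd1, -0.57 for Lilrb4a, 0.0399 for Cd244a (-0.18 to 0.25), 0.11 for Vsir and 0.76 for Cd96.

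**Figure D1:**
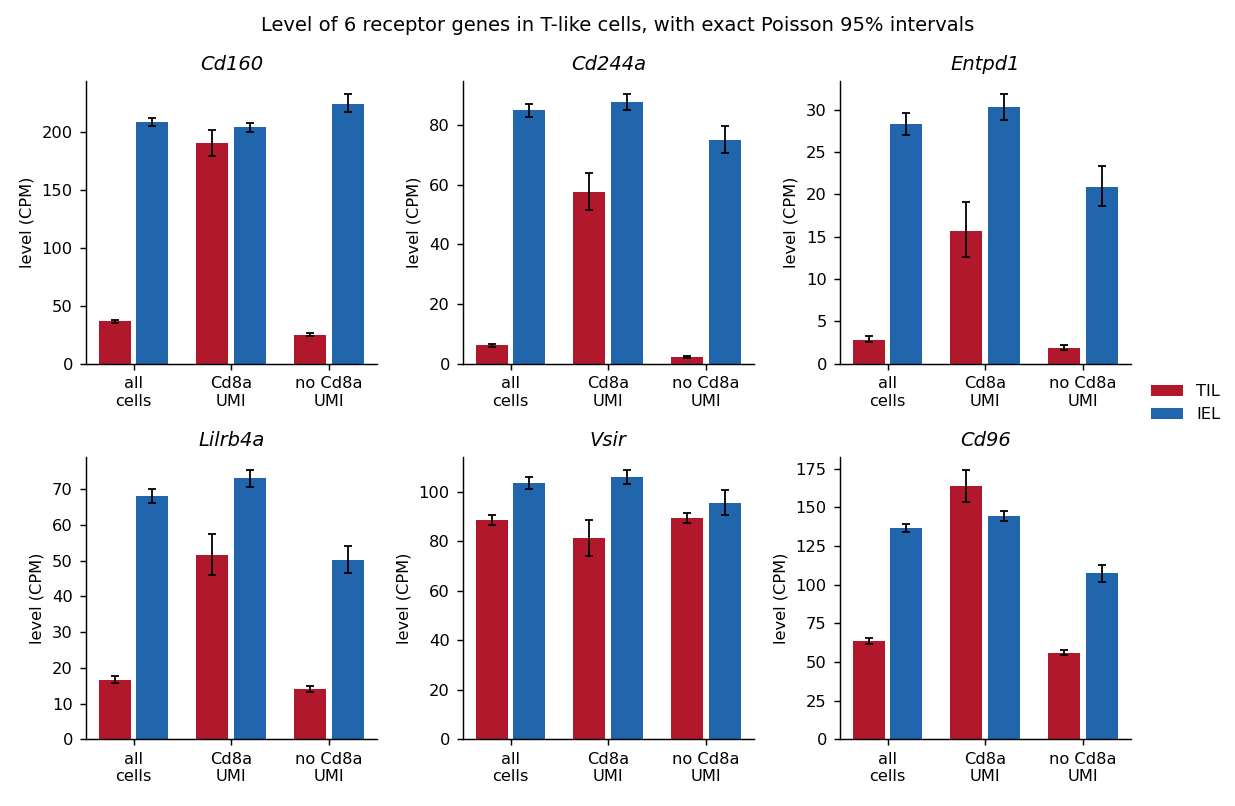
Level of each gene in CPM of summed UMIs (vertical axis, one scale per gene) in TIL (red) and IEL (blue) T-like cells, for all cells, cells with a Cd8a UMI and cells without; error bars are exact Poisson 95% intervals and each bar is 1 library. The red bars approach the blue ones in cells with a Cd8a UMI for 5 genes, and Vsir differs little in any split: 88.6 CPM in TIL, against 104 CPM in IEL over all cells.

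Cd160 (chromosome 3, 96798763 to 96829351, minus strand, GRCm38) stood at 36.5 CPM in TIL (35.3 to 37.8) and 208 CPM in IEL (205 to 212), a log2 ratio of -2.51 (-2.57 to -2.45). In cells with a Cd8a UMI it reached 189.9 CPM in TIL, against 204 CPM in IEL, a log2 ratio of -0.10 (-0.19 to -0.01). Cells without one held 25.0 CPM in TIL, against 224 CPM in IEL, a log2 ratio of -3.17 (-3.25 to -3.09). TIL cells with a Cd8a UMI thus carried 7.61 times the Cd160 level of TIL cells without one, whereas in IEL the 2 kinds of cell lay within 1.10-fold of each other.

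Cd244a (chromosome 1, 171559193 to 171609746, plus strand) had the ratio furthest from 1 among the 6 genes. Its level was 6.18 CPM in TIL (5.66 to 6.72) and 84.9 CPM in IEL (82.7 to 87.1), 13.7-fold lower in TIL. With a Cd8a UMI the values were 57.4 CPM in TIL, against 87.6 CPM in IEL, a log2 ratio of -0.61 (-0.77 to -0.45). Without one they were 2.31 CPM in TIL, from 186 UMIs over 10914 cells, and 75.0 CPM in IEL, a log2 ratio of -5.02 (-5.25 to -4.80).

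Entpd1 (chromosome 19, 40612366 to 40741602, plus strand) rested on few TIL molecules, 247 UMIs or 2.85 CPM (2.51 to 3.23), against 1931 UMIs or 28.3 CPM in IEL (27.0 to 29.6). In cells with a Cd8a UMI it was 15.6 CPM in TIL (12.6 to 19.1) and 30.3 CPM in IEL (28.8 to 31.8), a log2 ratio of -0.95 (-1.27 to -0.66). The 2-fold line lay inside that interval, and the log2 ratio was -1.03 when every cell passing the filter was used. Cells without a Cd8a UMI had 1.89 CPM in TIL, against 20.9 CPM in IEL, a log2 ratio of -3.47.

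Lilrb4a (chromosome 10, 51490956 to 51496611, plus strand) was at 16.8 CPM in TIL (15.9 to 17.6) and 68.1 CPM in IEL (66.2 to 70.1), a log2 ratio of -2.02. It held 51.5 CPM in TIL against 73.0 CPM in IEL cells with a Cd8a UMI, and 14.1 CPM in TIL against 50.2 CPM in IEL cells without one. Lilr4b, the neighbouring gene for gp49A, has a transcript 96.3% identical to that of Lilrb4a over 1383 aligned positions. Over the last 500 bases, nearer the 3′ ends that were read, the best alignment covered only 114 positions, 106 of them identical. How well reads were split between the pair was not tested. Lilr4b itself was at 17.6 CPM in TIL, against 116 CPM in IEL. The pair summed gave log2 ratios of -2.42 over all cells, -0.76 with a Cd8a UMI and -2.28 without. Myeloid-like TIL cells carried 485 CPM of Lilrb4a (457 to 514) and 127 CPM of Entpd1 (113 to 142), so both genes were kept to T-like clusters here. With every cell passing the filter, myeloid-like cells included, the Lilrb4a log2 ratio was -1.17 over all cells and -0.88, within 2-fold, without a Cd8a UMI, and that of Entpd1 was -2.22 over all cells.

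Vsir (chromosome 10, 60346851 to 60372684, plus strand) differed least of the 6 over all T-like cells. It was at 88.6 CPM in TIL (86.7 to 90.7) and 104 CPM in IEL (101 to 106), a log2 ratio of -0.23 (-0.27 to -0.18). Its log2 ratio was -0.38 in cells with a Cd8a UMI (81.2 CPM in TIL, 106 CPM in IEL) and -0.10 in cells without (89.2 CPM in TIL, 95.3 CPM in IEL). The intervals of all 3 ratios excluded 1, but the direction depended on the cells used. Cells with a Cd3 UMI and no marker of another type gave a log2 ratio of -0.07 (-0.17 to 0.03) over all and 0.05 (-0.10 to 0.20) without a Cd8a UMI. In cytotoxic-like cells it was 0.11 (-0.08 to 0.30) over all and 0.11 (-0.09 to 0.30) with a Cd8a UMI.

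Cd96 (chromosome 16, 46035657 to 46120251, minus strand) was at 63.6 CPM in TIL (62.0 to 65.3) and 137 CPM in IEL (134 to 139), a log2 ratio of -1.10 (-1.15 to -1.05). With the mean of each cell's own CPM in place of summed UMIs it came within 2-fold. In cells with a Cd8a UMI the direction turned: 163 CPM in TIL (153 to 174) against 145 CPM in IEL (141 to 148), a log2 ratio of 0.18 (0.08 to 0.27). Cells without a Cd8a UMI held 56.1 CPM in TIL, against 107 CPM in IEL, a log2 ratio of -0.93, just short of 2-fold.

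Set within each library, the Cd8a split gave ratios past 2-fold for most of the 6 genes in TIL and for none in IEL. In TIL, 4 of the 5 genes above 20 CPM were at least 2-fold higher in cells with a Cd8a UMI (Cd160, Cd244a, Lilrb4a and Cd96, log2 ratios 2.93, 4.64, 1.86 and 1.54), against 6.26% of 5883 genes higher and 6.48% lower. Entpd1 had a log2 ratio of 3.05 (2.66 to 3.43) but lay under 20 CPM on both sides, and Vsir had -0.14 (-0.27 to -0.0036). In IEL, none of the 6 was 2-fold apart, against 0.607% of 5935 genes higher and 0.674% lower. The IEL log2 ratios were -0.14 for Cd160, 0.22 for Cd244a, 0.53 for Entpd1, 0.54 for Lilrb4a, 0.15 for Vsir and 0.43 for Cd96. Both sides of these ratios are cells of the same library, and the 4 genes that differ in TIL also differ between its clusters, as shown next.

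Leiden clustering of both libraries, done without the 6 genes and without Cd8a, gave 18 T-like sums of at least 50 cells of one cluster in one library, 10 in TIL and 8 in IEL. TIL was mostly IL-17-like (69.8% of T-like cells, against 0.0881% in IEL), and IEL mostly cytotoxic-like (76.6%, against 3.11% in TIL). Most clusters came almost wholly from 1 library, and such a cluster may reflect the library instead of a cell type. Clusters 11 (661 TIL cells, with Il12rb2 and Kit among its leading genes) and 12 (304 TIL cells, cytotoxic-like) made up 8.18% of TIL T-like cells. That fraction held 80.0% of the Cd8a UMIs of TIL T-like cells, 70.7% of Cd244a (66.6 to 74.5), 49.6% of Cd160 (47.8 to 51.3) and 34.4% of Entpd1 (28.5 to 40.7). It held 26.2% of Lilrb4a, 18.8% of Cd96 and 5.78% of Vsir UMIs. IL-17-like cells held 76.7% of the TIL Vsir UMIs and 65.6% of Cd96, but 33.6% of Cd160 and 11.6% of Cd244a.

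**Figure D2:**
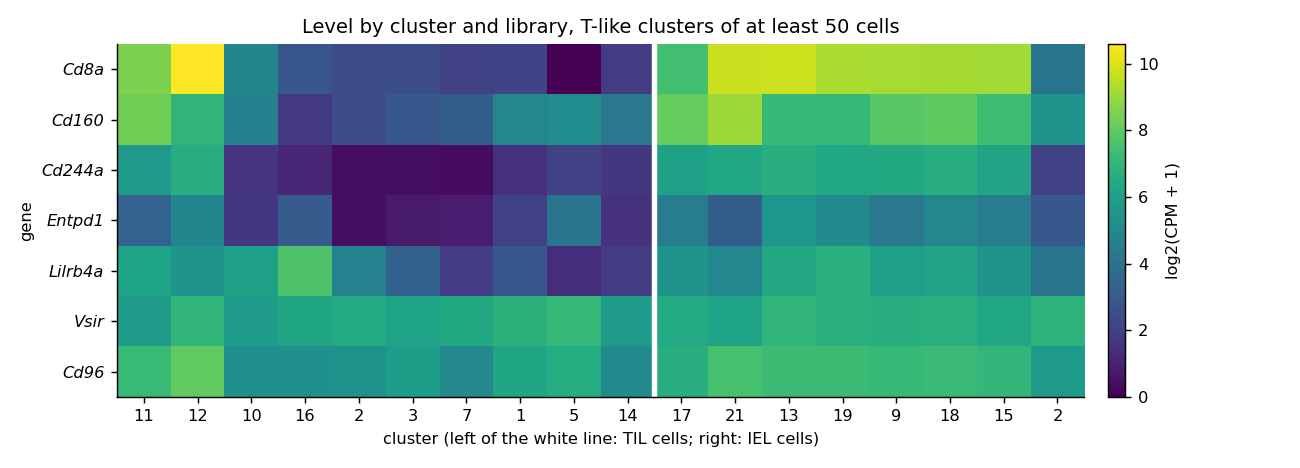
Level of Cd8a and the 6 genes as log2(CPM + 1) (colour) in each T-like cluster of at least 50 cells; columns left of the white line are TIL clusters and columns right of it IEL clusters. Cd244a shows a division, at 50.7 CPM or more in TIL clusters 11 and 12 and in 7 IEL clusters, and at 3.29 CPM or less in the others.

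By cluster, Cd160 was highest in TIL in cluster 11 (313 CPM, 297 to 330), followed by cluster 12 (121 CPM, 105 to 139). The other TIL clusters held between 2.45 CPM (cluster 16, led by Tnfrsf4 and Foxp3) and 34.1 CPM (cluster 5). Within the large IL-17-like clusters it was at 28.7 CPM (26.8 to 30.8) in cluster 1, led by Rbm24 and Mmp9, but at 6.47 CPM in cluster 3 and 7.69 CPM in cluster 7. In IEL it ran from 42.8 CPM in cluster 2 to 531 CPM (490 to 575) in cluster 21, whose leading genes include Wnt11 and Xcl1. TIL cluster 12 and IEL clusters 13 and 19 had overlapping intervals, at 121, 136 and 133 CPM.

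Cd244a divided the 18 sums into groups with nothing in between. TIL clusters 12 (95.4 CPM, 81.0 to 112) and 11 (50.7 CPM, 44.3 to 57.9) stood with 7 IEL clusters at 66.4 to 97.6 CPM. The other 8 TIL clusters were at 3.25 CPM or less, and IEL cluster 2, with 50 cells, was at 3.29 CPM from 1 UMI. Intervals of TIL cluster 12 and of the highest IEL clusters, 13 and 18 at 97.6 and 97.5 CPM, overlapped.

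Entpd1 peaked in TIL in cluster 12 (27.5 CPM, 20.1 to 36.8) and lay at 9.14 CPM in cluster 11. Cluster 5, a small IL-17-like cluster of 89 TIL cells, had 16.2 CPM from 10 UMIs (7.78 to 29.8). In IEL the highest level was in cluster 13 (46.7 CPM, 43.4 to 50.1) and the lowest in clusters 21 and 2 (7.83 and 6.59 CPM). Cluster 21, the highest for Cd160, was thus among the lowest for Entpd1.

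Lilrb4a had its highest level in TIL cluster 16, at 197 CPM (168 to 230) with a UMI in 61.9% of its 84 cells. Foxp3 and Cd4 were among the leading genes of cluster 16, and Trac was detected in 89.3% of its cells. Trdc was detected in 65.5% of them, against 63.1% of myeloid-like TIL cells, so this level may not be that of γδ T cells. Cluster 16 had no counterpart in IEL, and it held 11.1% of the Lilrb4a UMIs of TIL T-like cells. TIL clusters 11 (70.4 CPM) and 10 (63.1 CPM, recirculating-like) overlapped with IEL clusters 18 (67.7 CPM) and 9 (64.2 CPM). TIL clusters named IL-17-like ranged from 1.62 CPM in cluster 5, from 1 UMI, to 8.78 CPM in cluster 3. TIL cluster 2, left without a subset name although 7 of 8 IL-17 markers reached 50 CPM, was at 24.7 CPM (21.7 to 28.0).

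Vsir had both its lowest and its highest cluster level in TIL, 54.0 CPM in the cycling-like cluster 14 and 133 CPM in cluster 5. The 8 IEL clusters fell inside that range, from 68.7 CPM (cluster 21) to 125 CPM (cluster 13). Cd96 was highest in TIL cluster 12, at 255 CPM (231 to 281), above every IEL cluster, of which cluster 21 was the highest with 180.0 CPM (156 to 206). TIL cluster 11 (141 CPM) overlapped with IEL clusters 18 (146 CPM), 9 (136 CPM) and 15 (127 CPM). The lowest Cd96 levels were in TIL clusters 7 (31.1 CPM) and 14 (32.7 CPM).

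Clusters with leading genes in common were then set against each other. Between TIL cluster 12 and IEL cluster 13, which share Gm156 and 6330403K07Rik among their leading genes, 0 of the 6 genes were 2-fold apart, where 6.44% of 6116 genes were lower and 3.94% higher in TIL. Cd96 had the largest upward log2 ratio there, 0.73 (0.58 to 0.88), and Lilrb4a the largest downward one, -0.90 (-1.26 to -0.56). Between TIL cluster 11 and IEL cluster 17, which share Bend4, only Entpd1 was 2-fold apart, at 9.14 CPM in TIL, against 20.6 CPM in IEL (log2 ratio -1.17, -1.69 to -0.69), where 5.1% of 5981 genes were lower and 2.27% higher. The median log2 ratio over all genes in that pair was -0.10. These pairs were picked after the clusters were seen, and TIL cluster 12 had 99.01% of cells with a Cd8a UMI, against 95.6% in IEL cluster 13. Cd8a itself was not level in the other pair, at 359 CPM in TIL cluster 11, against 165 CPM in IEL cluster 17. Bend4 was also among the leading genes of IEL cluster 21, for which no ratio to TIL cluster 11 was computed. Cluster 21 held less Lilrb4a (29.6 CPM, against 70.4 CPM in TIL cluster 11) and less Entpd1 (7.83 CPM, against 9.14 CPM). It held more Cd160, Cd244a, Vsir and Cd96, and intervals overlapped for Entpd1 and Vsir.

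Inside TIL clusters, the ratios of cells with a Cd8a UMI over cells without one were smaller than over all T-like cells for Cd160, Cd244a, Lilrb4a and Cd96. In TIL cluster 1, where 52 of 3613 cells had a Cd8a UMI, Cd160 had a log2 ratio of 0.81 (0.19 to 1.36) and Cd244a one of 2.46 (0.77 to 3.79). Cd244a lay under 20 CPM on both sides there, at 9.17 CPM with a Cd8a UMI and 1.66 CPM without. The cells with a Cd8a UMI were 1.44% of that cluster, against 6.67% of myeloid-like TIL cells, which should lack Cd8a. Whether the UMI marks Cd8a expression in cluster 1 was not tested. In TIL cluster 11, with 288 cells having a Cd8a UMI and 373 without, the log2 ratios were 0.13 for Cd160, 0.29 for Cd244a, 0.25 for Lilrb4a and 0.42 for Cd96, with 1.08 for Entpd1 (0.10 to 2.11) and 0.50 for Vsir. In the 5 IEL clusters with at least 50 cells on each side, the Cd160 log2 ratio lay between -0.38 and 0.88 and was above 0 in 4 of them. For Cd244a it lay between -0.74 and 0.34, for Lilrb4a between -0.07 and 0.54, and for Cd96 between -0.22 and 0.53. IEL cluster 19 went both ways, with Cd160 higher (0.88, 0.61 to 1.17) and Cd244a lower (-0.74, -0.99 to -0.48) in cells with a Cd8a UMI.

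Shares of cells were compared after thinning each cell to 2000 UMIs, which left out 64 TIL and 72 IEL cells that were too shallow. A Cd160 UMI was then found in 5.29% of TIL cells (4.89 to 5.71) and 30.4% of IEL cells (29.5 to 31.4), and unthinned in 11.03% of TIL and 60.9% of IEL cells. Thinned, Cd244a was found in 1.15% of TIL and 14.8% of IEL cells. Entpd1 was found in 0.640% of TIL and 5.24% of IEL cells, and Lilrb4a in 2.76% of TIL and 11.2% of IEL cells. Vsir was found in 15.9% of TIL and 18.8% of IEL cells, and Cd96 in 12.3% of TIL and 23.1% of IEL cells. Myeloid-like TIL cells, which should lack Cd160 and Cd96, had shares of 0.472% (0.0119 to 2.60) and 2.83% (1.05 to 6.06) at the same depth. The shares over all TIL T-like cells stood above this background. In IL-17-like TIL cells, the Cd160 share of 2.26% (1.95 to 2.60) overlapped with it. The Cd96 share of those cells, 11.2% (10.5 to 11.9), lay above it. The other 4 genes are expressed by myeloid cells, so no such background was available for them, and the TIL shares of Cd244a and Entpd1 are read with that limit.

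Binned by Cd8a UMIs at 2000 UMIs per cell, the TIL shares of the 5 genes other than Vsir differed between cells with 0 and cells with 3 or more beyond their intervals. In IEL the same held for Cd244a (12.1 to 14.2 with 0, 15.7 to 19.8 with 3 or more), Cd96 (19.2 to 21.7 and 24.1 to 28.8) and Entpd1. The Entpd1 share in IEL was 4.57% (3.95 to 5.27) with 0 and 6.90% (5.64 to 8.35) with 3 or more. Cd160 was found in 3.85% of TIL cells with 0 Cd8a UMIs (3.50 to 4.22), in 25.9% with 1, in 30.2% with 2 and in 31.9% with 3 or more (26.5 to 37.7). In IEL the same bins gave 31.6%, 28.4%, 30.5% and 30.2%. Cd244a was found in 0.470%, 7.41%, 13.2% and 16.3% of the TIL bins in the same order, while the IEL bins held 13.2%, 15.7%, 15.4% and 17.7%. Cd96 in TIL was found in 10.9%, 23.1%, 41.5% and 40.4% of cells, and in IEL in 20.4%, 24.8%, 25.1% and 26.4%. The 2 upper Cd96 bins of TIL (33.8 to 49.6 and 34.6 to 46.4) lay above those of IEL (22.8 to 27.5 and 24.1 to 28.8). Vsir stayed between 15.7% and 17.02% in all 4 TIL bins and between 17.9% and 20.4% in IEL. The TIL bins with 1, 2 and 3 or more Cd8a UMIs held 216, 159 and 282 cells.

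**Figure D3:**
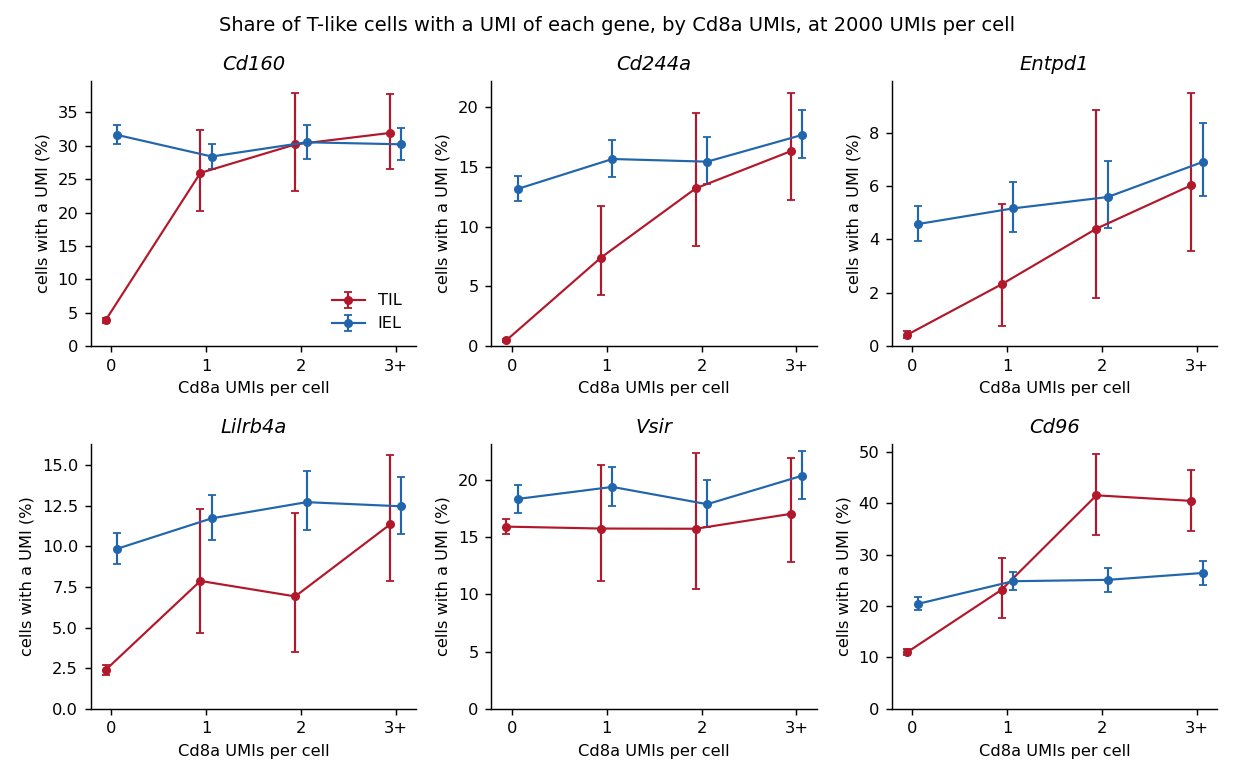
Share of T-like cells with a UMI of each gene (vertical axis, percent) by the cell's Cd8a UMIs after thinning to 2000 UMIs (horizontal axis), in TIL (red) and IEL (blue), with exact 95% binomial intervals. The TIL line meets the IEL line within the intervals at 3 or more Cd8a UMIs for Cd160, Cd244a, Entpd1, Lilrb4a and Vsir, and lies above it for Cd96 (40.4% in TIL, 26.4% in IEL).

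The number of the 6 genes seen in one cell followed the same division. At 2000 UMIs per cell at least 1 of them had a UMI in 32.0% of TIL cells (31.2 to 32.9) and 68.5% of IEL cells (67.5 to 69.4). At least 2 were seen in 5.22% of TIL cells (4.82 to 5.64) and 27.9% of IEL cells (27.0 to 28.8), and unthinned in 23.4% of TIL and 79.6% of IEL cells. With a Cd8a UMI the share with at least 2 was 26.1% in TIL (23.2 to 29.1) and 29.4% in IEL (28.4 to 30.5), and without one 3.55% in TIL and 22.9% in IEL. In cytotoxic-like cells, held mostly by cluster 12 in TIL and by clusters 9, 13, 18 and 19 in IEL, it was 35.9% in TIL (31.0 to 41.1) and 28.8% in IEL (27.7 to 29.9). No TIL cell had more than 4 of the 6, and 2 IEL cells had all 6.

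If the genes had been spread over cells independently within each library, 4.49% of TIL cells and 27.6% of IEL cells would have held at least 2. At least 3 were seen in 0.725% of TIL cells (0.579 to 0.895), against 0.260% under independence, and in 6.17% of IEL cells (5.68 to 6.69), against 6.28%. Restricted to cells with a Cd8a UMI, at least 3 were seen in 6.11% of TIL cells (4.61 to 7.92), with 4.97% under independence. Among TIL cells without one, at least 3 were seen in 0.295% (0.202 to 0.416), with 0.141% under independence.

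**Figure D4:**
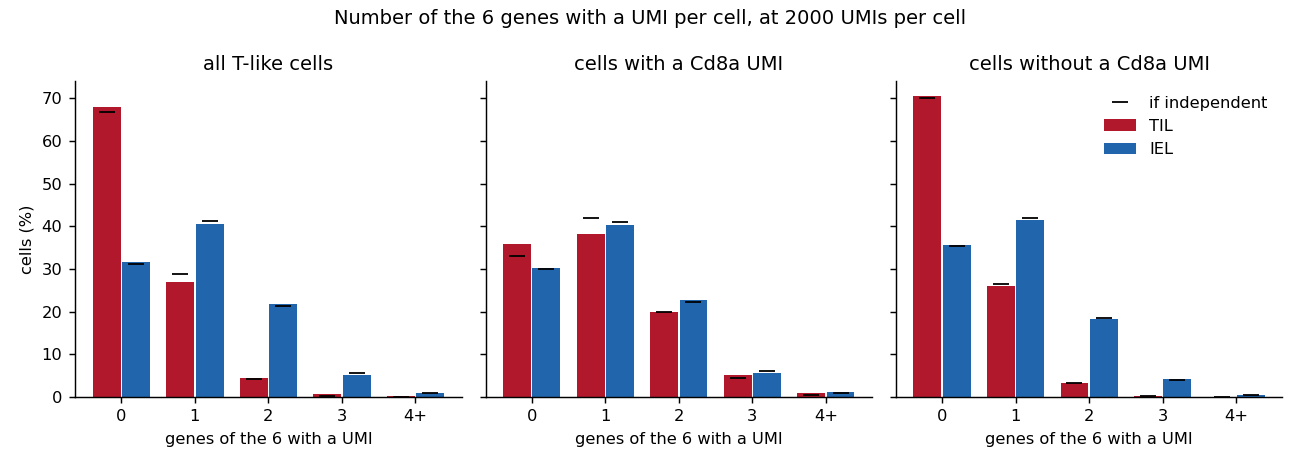
Share of T-like cells (vertical axis, percent) by how many of the 6 genes had a UMI after thinning to 2000 UMIs per cell, in TIL (red) and IEL (blue); black dashes give the share if the genes were independent within that set of cells. In cells with a Cd8a UMI the 2 libraries lie close (26.1% of TIL and 29.4% of IEL cells with at least 2), and in cells without one they lie apart (3.55% in TIL, 22.9% in IEL).

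Pair by pair, the observed over expected number was above 1 as a point value for 10 of the 11 TIL pairs with at least 5 cells expected, and for 12 of 15 in IEL. Its interval lay above 1 for 5 TIL pairs and 1 IEL pair, and below 1 for 2 IEL pairs. Cd160 and Cd244a were seen together in 45 TIL cells where 7.14 were expected, 6.30 times as many (4.60 to 8.44), and in 431 IEL cells where 407 were expected, 1.06 times (0.962 to 1.16). Among TIL cells with a Cd8a UMI alone this pair was seen in 33 cells where 25.7 were expected, 1.28 times (0.882 to 1.80), and 0 of 12 TIL pairs had an interval above 1 there. Among TIL cells without a Cd8a UMI it was seen in 12 cells where 1.42 were expected, under the minimum of 5. Over all TIL T-like cells, the other pairs with an interval above 1 were Cd160 with Lilrb4a (2.80 times), Cd244a with Cd96 (2.65), Entpd1 with Cd96 (1.95) and Cd160 with Cd96 (1.85). The other 4 TIL pairs had fewer than 5 cells expected. Among them, Cd244a and Entpd1 were seen together in 12 cells where 0.863 were expected, 13.9 times as many (7.18 to 24.3). Pairs with Vsir lay between 0.872 and 1.26 times in TIL.

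In IEL the observed over expected numbers spanned 0.786 to 1.27. Cd160 was seen with Entpd1 in 113 IEL cells where 144 were expected (0.786 times, 0.648 to 0.946) and with Lilrb4a in 267 where 306 were expected (0.873, 0.771 to 0.984). Entpd1 and Vsir were seen together more often than expected (1.27, 1.05 to 1.53). When odds ratios were combined within clusters, the TIL value for Cd160 and Cd244a was 1.37, against 9.58 over pooled cells. Of 11 TIL pairs with at least 5 cells expected, 6 were above 1, over a range of 0.858 to 1.40. Cd244a and Entpd1, not among those 11, had a within-cluster value of 3.97 in TIL. In IEL the within-cluster values ran from 0.827 for Cd160 and Entpd1 to 1.33 for Entpd1 and Vsir, with 11 of 15 above 1. Cells of 1 library share their source and are no replicates, so no p is given for any pair.

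**Figure D5:**
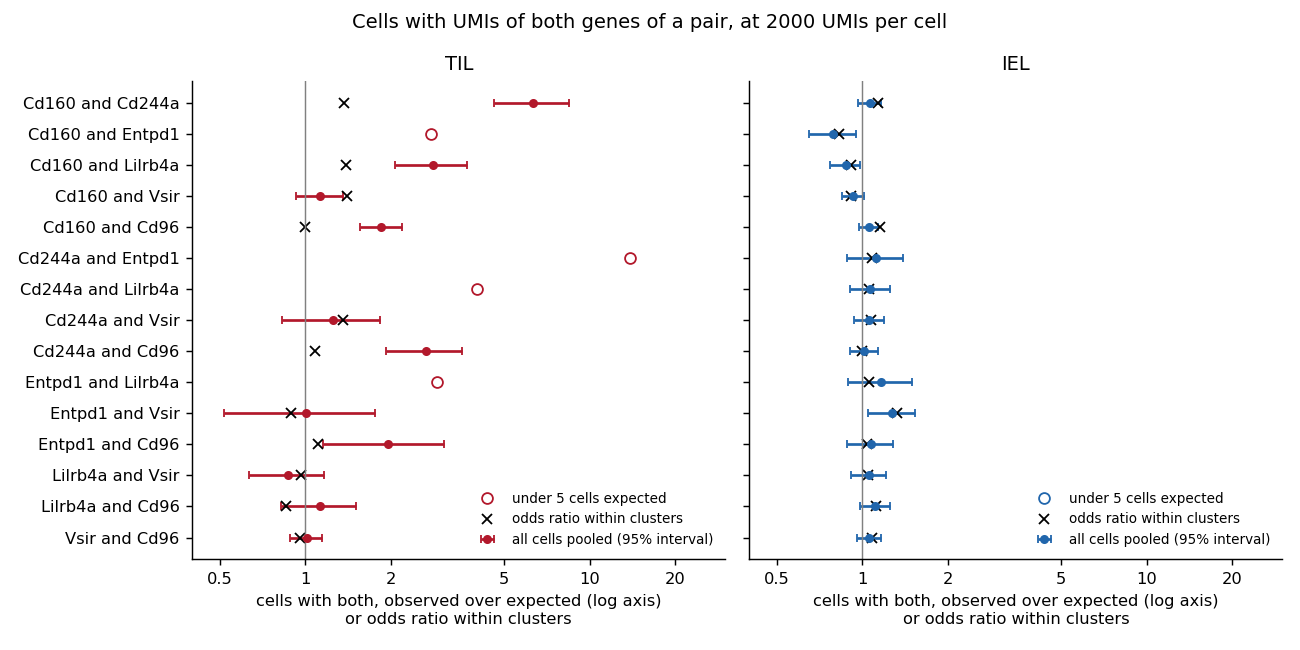
For each pair of genes, cells with UMIs of both over the number expected under independence (filled points with 95% intervals; open points where fewer than 5 cells were expected) and the odds ratio combined within clusters (crosses), on a log axis, in TIL (left) and IEL (right). Filled TIL points reach 6.30 for Cd160 and Cd244a, whose cross lies at 1.37. The open TIL point of Cd244a and Entpd1 lies at 13.9, from 12 cells where 0.863 were expected. In IEL points and crosses lie between 0.786 and 1.33.

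Across the 18 cluster sums, the levels of Cd160 and Cd244a on a log2(CPM + 1) scale had a Pearson correlation of 0.93, those of Cd244a and Cd96 0.90, and those of Cd244a and Entpd1 0.87. Vsir correlated with the other 5 between -0.06 (Lilrb4a) and 0.51 (Entpd1). The sums of 1 library share that library and its depth, and no p is given. Of 7453 genes with at least 20 CPM in 1 of the sums, those most like Cd160 were Ctsw (0.95), Slamf7 (0.93) and Litaf (0.93), and those most like Cd244a were Ecsit, Lrmp and Hvcn1 (0.98 each). Entpd1 was most like Zbtb38 (0.95), Gsap and Tnfsf10 (0.93 each), and Cd96 most like Fbxw4, Prkacb and Nedd9 (0.95 each). Lilrb4a was most like its neighbour Lilr4b (0.97), then Malt1 (0.95) and Fyb (0.92). No gene came closer to Vsir than Ddx28 (0.81), Bicral (0.80) and Grk3 (0.79).

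The known partners of the 6 proteins were read next, over all T-like cells. Tnfrsf14, the ligand gene for CD160, was under 20 CPM, at 1.27 CPM in TIL, against 2.04 CPM in IEL. Cd48, the ligand gene for CD244, was at 203 CPM in TIL, against 137 CPM in IEL, a log2 ratio of 0.57. Sh2d1b1, which encodes the CD244 adaptor EAT-2, was at 1.52 CPM in TIL, against 21.3 CPM in IEL (log2 ratio -3.80), and the SLAM receptor Slamf7 at 5.03 CPM in TIL, against 43.1 CPM in IEL (-3.10). With a Cd8a UMI these were 14.6 CPM in TIL, against 22.1 CPM in IEL for Sh2d1b1, and 38.6 CPM in TIL, against 46.2 CPM in IEL for Slamf7. Of the 4 SLAM-group genes above 20 CPM, 2 were lower in TIL over all cells, where 13.8% of all genes were lower, and 0 in cells with a Cd8a UMI, where 4.95% were.

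Nt5e (CD73), which turns the AMP made by CD39 into adenosine, was at 114 CPM in TIL, against 102 CPM in IEL, a log2 ratio of 0.16. The ATP-gated channel gene P2rx7 was at 6.23 CPM in TIL, against 50.2 CPM in IEL (-3.01), and the adenosine receptor gene Adora2a at 44.3 CPM in TIL, against 174 CPM in IEL (-1.97). Of 7 measured genes of the purinergic group, 4 were lower in TIL and none higher, beside 13.8% of all genes lower and 11% higher. Adora2a remained lower in cells with a Cd8a UMI, at 84.5 CPM in TIL, against 177 CPM in IEL (-1.07). Selplg (PSGL-1), a reported VISTA ligand, was at 512 CPM in TIL, against 405 CPM in IEL (0.34), and Lgals9 at 22.3 CPM in TIL, against 54.4 CPM in IEL (-1.29).

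Pvr and Tigit were under 20 CPM, with Pvr at 13.4 CPM in TIL, against 7.09 CPM in IEL, and Tigit with 4.39 CPM in TIL, against 14.5 CPM in IEL. Cd226, the activating counterpart of Cd96, was at 73.8 CPM in TIL, against 39.9 CPM in IEL, a log2 ratio of 0.89 (0.82 to 0.95), while in cells with a Cd8a UMI it was at 40.1 CPM in TIL and in IEL. Of 9 genes of inhibitory signalling, 3 were lower in TIL, beside 13.8% of all genes. These were Ptpn6 (SHP-1; 39.0 CPM in TIL, 188 CPM in IEL), Lck (39.7 CPM in TIL, 328 CPM in IEL) and Dok1 (21.8 CPM in TIL, 85.6 CPM in IEL). In cells with a Cd8a UMI, Ptpn6 (-1.17) and Dok1 (-1.41) were still lower and Lck was at -0.54. Of 19 measured genes of intraepithelial residence other than the 6, 14 were lower in TIL, 1 higher (Itgb7, 1.31) and 4 within 2-fold, with a median log2 ratio of -2.36, beside 13.8% of all genes lower and 11% higher with a median of -0.10. Klre1 (-4.20), Gpr34 (-3.78) and Itga1 (-3.67) were the furthest apart. Of these 19, 4 were lower in cells with a Cd8a UMI, namely Ahr, Gpr34, Klre1 and Jaml, with a median of -0.42, beside 4.95% of all genes lower with a median of -0.06.

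Cells selected by receptor transcripts were read as well. Among them 4 of the 6 genes were lower in TIL, beside 13.9% of 6340 genes lower and 11.5% higher, and 0 of 6 were apart once a Cd8a UMI was required too, beside 6.8% of 6219 genes lower and 5.72% higher. In T-like cells with a γδ constant-segment UMI and no Trac UMI, 7340 in TIL and 2002 in IEL, Cd160 was at 28.5 CPM in TIL, against 217 CPM in IEL, and Cd244a at 3.85 CPM in TIL, against 74.4 CPM in IEL. Cd96 was at 62.3 CPM in TIL, against 112 CPM in IEL in these cells, a log2 ratio of -0.85, short of 2-fold. With a Cd8a UMI besides, 316 TIL and 1037 IEL cells remained, in which Cd160 was at 155 CPM in TIL, against 208 CPM in IEL. Among cells with a Cd8a UMI, those without Cd8b1 carried 185 CPM of Cd160 in TIL and 203 CPM in IEL, and those with Cd8b1 carried 286 CPM (227 to 357) in 38 TIL cells and 214 CPM in 578 IEL cells.

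Promoter windows of 250 bases upstream of annotated start sites (RefSeq, GRCm38.p6) were found for 5 of the 6 genes, at 7 start sites, with none for Lilrb4a. Shown here are one each for Cd160 and Cd244a, which were at least 2-fold apart by the Cd8a split in TIL, and that of Vsir, which was within 2-fold; 3′ counts do not tell which start site was used. Capitals mark matches, on either strand, to a Runx core (TGTGGT), a T-box core (TCACACC) or an ETS core (GGAAGT), which do not overlap here. The windows are Cd160 at its second listed start, chr3:96814522-96814771, minus strand, Cd244a, chr1:171558943-171559192, plus strand, and Vsir, chr10:60346601-60346850, plus strand.
Cd160: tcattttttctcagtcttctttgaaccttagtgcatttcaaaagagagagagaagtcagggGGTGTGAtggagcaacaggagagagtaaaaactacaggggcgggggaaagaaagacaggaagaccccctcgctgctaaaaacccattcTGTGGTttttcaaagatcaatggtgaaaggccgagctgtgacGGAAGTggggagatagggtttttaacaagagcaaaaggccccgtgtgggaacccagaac
Cd244a: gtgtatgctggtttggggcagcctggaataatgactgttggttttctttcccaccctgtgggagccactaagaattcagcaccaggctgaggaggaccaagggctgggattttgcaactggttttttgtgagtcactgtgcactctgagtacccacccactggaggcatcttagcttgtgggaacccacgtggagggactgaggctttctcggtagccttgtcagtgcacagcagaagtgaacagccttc
Vsir: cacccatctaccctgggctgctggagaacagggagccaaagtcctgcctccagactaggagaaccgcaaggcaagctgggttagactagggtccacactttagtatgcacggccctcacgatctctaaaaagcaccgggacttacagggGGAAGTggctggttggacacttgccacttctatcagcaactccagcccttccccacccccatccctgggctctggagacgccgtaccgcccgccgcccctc
The Cd160 window shown held 1 match of each motif, the Vsir window 1 ETS match and the Cd244a window none. That Cd160 window was the only one of the 7 with a T-box match. Of the other windows, the first Cd160 start and the Cd96 start each held a Runx match, and both Entpd1 windows held none. Among 32851 promoter windows of this length, 14.05% held the Runx core, 3.33% the T-box core and 19.7% the ETS core. A match describes letters in the window and says nothing of binding.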

How the data were processed

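Single-cell 3′ v3 libraries (10x Genomics) of 1 tumour (TIL) and 1 normal colon (IEL) sample were analysed from the deposited matrices, which per the file headers hold raw UMI counts as whole numbers that the authors had not normalized. Cell Ranger 6.1.1 and the mm10 build are named in the submitters' processing notes, and the cell calling step is not given in the sources used here. The digestion text in the labels speaks of tumour tissue in both cases, without a sort.

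Cells with at least 500 genes, 1000 UMIs and at most 10% mitochondrial UMIs were kept (12407 of 13245 TIL and 9128 of 9398 IEL barcodes). Scanpy 1.11.5 clustered both libraries together without batch correction from 2000 variable genes, 30 principal components, 15 neighbours and Leiden resolution 1 (igraph 0.11.9). The 6 genes, Cd8a, Cd8b1, other inhibitory receptors, receptor segments, mitochondrial, haemoglobin, immunoglobulin and sex-linked genes did not enter the choice of variable genes. Scrublet called 0 TIL and 2 IEL doublets, which was taken as not working, so none were removed; a cluster with a median score above 0.2 was left out. Clusters were named from marker lists; a name needed at least 3 markers, a mean marker level above the average of the kept cells, and no more markers of another class than its own among the 10 leading genes, a rule set after the data were seen.

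Levels are summed UMIs per 1e+06 (CPM). Ratios have exact 95% intervals conditional on both sums, levels exact Poisson intervals and shares Clopper-Pearson intervals, none of which covers more than counting error. Apart means at least 20 CPM on either side, a 2-fold ratio and an interval excluding 1. With 1 library per group no p-value was computed. Shares and pairs used cells thinned to 2000 UMIs without replacement. Simulated data served to check the ratio intervals, a like thinning step and an odds ratio, but not the steps that gave the shares and pairs. The 6 genes and the partner lists were chosen with earlier results of these data known. Named partners are the known ligand or direct partner and up to 3 further genes of a list with the largest ratios; others named to complete a small count were chosen after their values were seen. Alternatives changed the cell filter, the cells used, the scaling, the Cd8a split and the thinning.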

Additional observations from a re-analysis of the deposited data

Results flagged for a closer look

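Cd160 and Vsir are singled out because the Cd8a split ran in opposite directions in the 2 libraries. For Cd160 the log2 ratio of cells with a Cd8a UMI over cells without was 2.93 in TIL and -0.14 in IEL. For Vsir it was -0.14 in TIL and 0.15 in IEL. Neither difference between the libraries was tested, since each group had 1 library. The opposite directions did not hold in all cells. Within the 5 IEL clusters large enough on both sides the Cd160 log2 ratio was above 0 in 4, from -0.38 to 0.88, and within 2 TIL clusters that of Vsir was -0.50 and 0.50. When cells needed a Cd3 UMI and no marker of another type, the Cd160 value in IEL was -0.04 (-0.14 to 0.06) and the Vsir value in TIL -0.25 (-0.64 to 0.11).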

How the results depend on the processing

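The counts of genes 2-fold apart kept their size under the looser and the stricter cell filter, without the heat shock cluster, after centring on the median gene, with each cell weighted equally, in cells with a Cd3 UMI and no marker of another type and under both other Cd8a splits, moving by at most 1 gene. Over all T-like cells the count of 5 became 3 in cells with a γδ segment and no Trac UMI, myeloid-like cells included, and 0 in cytotoxic-like cells alone, where Cd244a (0.0399, -0.18 to 0.25), Vsir (0.11, -0.08 to 0.30) and Cd96 (0.76, 0.62 to 0.89) had log2 ratios above 0, the first 2 with intervals that include 0. The count of 0 in cells with a Cd8a UMI became 1 (Entpd1) with every cell passing the filter and 1 under the γδ segment rule, and the count of 4 in cells without one became 2 under that rule. The share of all genes apart was not computed for these sets of cells, so the counts stand without it. Restricted to T-like cells, an alternative added after seeing the data, the γδ rule gave 4, 0 and 3; leaving out cluster 16, also added later, changed none of these 3 counts. In T-like cells under the γδ rule and without a Cd8a UMI, Entpd1 lay under 20 CPM on both sides, at 1.85 CPM in TIL, against 14.2 CPM in IEL. It was therefore not counted there, and no share of all genes was computed for those cells. The share with at least 2 genes in TIL was 23.4% without thinning, 1.69% at 1000 UMIs, 13.1% at 4000 UMIs, at most 5.65% over 20 draws, 5.85% with every cell and 35.9% in cytotoxic-like cells. In IEL it was 79.6% without thinning, 10.2% at 1000 UMIs, 57.4% at 4000 UMIs, at least 27.0% over 20 draws and 23.9% under the γδ rule. Depth sets these shares, while the cause of the others was not tested. Within clusters 6 of 11 TIL pairs exceeded 1, against 10 pooled. Of 357 values of single genes under alternatives, 10 had the other sign from the reported value. The 2 of these that were reported as 2-fold apart are Cd244a and Cd96 over all T-like cells, in cytotoxic-like cells. The other 8 were reported within 2-fold. They are Vsir over all cells (0.11), Vsir (0.11) and Cd244a (0.082) with a Cd8a UMI and the Cd244a split in IEL (-0.06), all in cytotoxic-like cells, Vsir without a Cd8a UMI under the Cd3 rule (0.05) and after centring (0.0027), and Cd160 with a Cd8a UMI when the split was at 2 UMIs (0.11) or made on thinned cells (0.03). In all, 221 values stayed inside the counting interval of the reported value. Cytotoxic-like TIL cells without a Cd8a UMI numbered 19, too few for a value. No paired analysis was possible because each group had 1 library.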

Other observations

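The most Cd160 UMIs in a single T-like cell were 60 in TIL, in a cell without a Cd8a UMI, against 32 in IEL. Cells with at least 2 Cd160 UMIs made up 5.49% of TIL and 36.2% of IEL T-like cells.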
